A study of Caenorhabditis elegans with 20 samples.

Results

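The genes described here are 5 structural genes of the nematode cuticle, the collagens col-2, col-37, col-40 and col-41 and the cuticlin cut-1, measured by RNA-seq in whole dauer larvae of Caenorhabditis elegans. They come from a list of 6 collagen and cuticlin genes tied to the dauer or late larval cuticle. They were chosen by their gene names and known roles, with no value in the rule, but with earlier results of these data in view, in which the normalized counts of col-41 were already known to be lower with 5-Ph-IAA alone. The sixth gene, col-6, matched no identifier by symbol and was not analysed here. All 5 matched genes passed the filter on low values, as did 17090 of the 46925 genes of the table.

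The cuticle is the exoskeleton of the worm, secreted by the hypodermis and seam cells and replaced at each molt. It consists mostly of crosslinked collagens, of which each stage uses its own selection, and of insoluble cuticlins. The dauer larva, an arrested stage entered under starvation or crowding, makes a thickened cuticle with longitudinal ridges called alae. DAF-2 is the insulin receptor of the worm, and loss of its signal lets the FOXO transcription factor DAF-16 drive entry into dauer.

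All animals carried daf-16(ot853[daf-16::mNG::AID]), in which DAF-16 bears a degron tag, together with daf-2(e1370), which made them arrest as dauers. Strain OH14654 had nothing further, and strain OH17582 also carried the single-copy insertion otSi2, in which the intestinal promoter ges-1p drives the degradation factor TIR1(F79G) fused to mRuby. Each strain was grown from embryos for 3 days at 25 °C on plates with 100 µM 5-Ph-IAA, the synthetic auxin that brings TIR1(F79G) and the degron together, or with 0.2% ethanol as the solvent. The 4 conditions were therefore neither component, 5-Ph-IAA alone, TIR1(F79G) alone and both components, the last of which removes DAF-16 from the intestine. Each had 5 biological replicates of about 24000 animals, from which the few animals not in dauer had been picked off. Every comparison across strains compares 1 strain with 1 other, so the transgene and any other strain difference cannot be told apart. The collagens studied are made outside the intestine, and in whole animals fewer cells of a type and less RNA per cell cannot be told apart.

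The libraries held between 3989669 and 15585703 reads on genes, and the values are the deposited DESeq2-normalized counts. Replicate 5 of the condition with both components was the shallowest and held the largest share of ribosomal RNA, 21.4% against at most 7.07% in the control libraries. Markers of adult hypodermis (col-19, col-7, col-62, bli-1 and bli-2) summed to 299 to 702 normalized counts with both components. The same sum was 5.94 to 389 in the controls, and 2 control libraries stood apart: replicate 5 with neither component (389) and replicate 5 of TIR1(F79G) alone (283). The markers of hypodermis and seam summed to between 2305 and 3193 in every library. In any comparison 0 of the 7 tested were called by limma, with a Benjamini-Hochberg adjusted p under 0.05 and a change of at least 1.5-fold. Over all genes 0.0293% to 9.17% were called, depending on the comparison. At most 2 of the 7 had an unadjusted p under 0.05 in any 1 comparison, against 835 to 5200 of the 17090 genes.

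The genes lay on 4 chromosomes of the WBcel235 assembly, all as protein-coding genes. The gene col-2 (WBGene00000593) spans chromosome IV from 10084439 to 10085451 on the minus strand, and col-37 (WBGene00000614) spans chromosome V from 12166706 to 12167753 on the minus strand. The gene col-40 (WBGene00000617) spans chromosome II from 1104942 to 1106964 on the minus strand, and cut-1 (WBGene00000851) lies on the same chromosome from 11269122 to 11271660 on the plus strand. The gene col-41 (WBGene00000618) lies on chromosome X from 15175032 to 15176481 on the minus strand, within the span of ucr-2.2 on the opposite strand, with which it shares 0 exon bases. The level of ucr-2.2 was nearly flat, with means of 765, 756, 737 and 770 normalized counts in the conditions with neither component, 5-Ph-IAA alone, TIR1(F79G) alone and both components. Short antisense non-coding RNA genes overlap the exons of the other 4 genes, each with a highest value of at most 2.05 normalized counts. The strand setting of the read counting is not given in the sources used here, so reads of overlapping genes cannot be told apart.

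Per kilobase of exon, 4 of the genes were among the stronger members of their families and 1 was not. Averaged over the 20 libraries, col-2 stood at 1189 normalized counts per kilobase, rank 4 of 156 col genes, and col-40 at 1143, rank 5. The gene col-37 stood at 619.7, rank 10, and col-41 at 27.8, rank 82, below the family median of 33.9. The highest col gene was col-107, at 3047. The cuticlin cut-1 had the highest level of the 35 cuticlin genes, 396 normalized counts per kilobase against a family median of 5.52.

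The dauer collagen col-2, known for a transcript most abundant around entry into dauer, was high in every library and varied widely within each condition. With neither component its normalized counts were 1460, 996.7, 443.9, 816.2 and 919.0 in replicates 1 to 5, a mean of 927 ± 366 (SD, n = 5). With 5-Ph-IAA alone they were 1198, 1217, 986.4, 502.4 and 813.1, a mean of 943 ± 297 (SD, n = 5). These 2 groups covered almost the same range.

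With TIR1(F79G) alone col-2 had 1884, 1487, 1429, 2822 and 721.1 normalized counts, a mean of 1669 ± 769 (SD, n = 5). With both components it had 813.7, 1038, 973.1, 1678 and 771.3, a mean of 1055 ± 365 (SD, n = 5). The TIR1(F79G) group held both the highest col-2 value of the series, in replicate 4, and one of the lowest, in replicate 5, and its range overlapped that of every other condition. In the order of means from TIR1(F79G) alone through both components and 5-Ph-IAA alone to neither component, no neighbouring conditions differed beyond their spread.

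The collagen col-37 followed nearly the same order of libraries at a lower level. It had 745.0, 533.8, 228.3, 435.0 and 494.1 normalized counts with neither component and 607.3, 648.4, 529.5, 269.3 and 416.1 with 5-Ph-IAA alone. It had 1105, 802.3, 759.8, 1572 and 400.6 with TIR1(F79G) alone and 432.6, 614.7, 534.0, 841.7 and 337.6 with both components. The means were 487 ± 186, 494 ± 154, 928 ± 438 and 552 ± 193 (SD, n = 5 each) in that order of conditions. In 4 of the 5 TIR1(F79G) libraries the value lay above every library with neither component, and replicate 5 closed the gap.

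The collagen col-40, tied to the molt into dauer, matched col-2 in level and in pattern. Its normalized counts were 1395, 1045, 497.5, 835.0 and 957.1 with neither component and 1293, 1307, 1011, 532.9 and 889.0 with 5-Ph-IAA alone. They were 1974, 1395, 1428, 2896 and 875.6 with TIR1(F79G) alone and 920.6, 1214, 1050, 1730 and 849.9 with both components. Group means were 946 ± 326, 1007 ± 320, 1714 ± 767 and 1153 ± 351 (SD, n = 5 each), and all 4 ranges overlapped.

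The cuticlin cut-1, a component of the dauer cuticle beneath the alae, was likewise highest in replicate 4 of TIR1(F79G) alone, with a library order close to but not the same as that of the collagens. Its normalized counts were 753.9, 570.5, 229.8, 405.4 and 427.2 with neither component and 684.5, 581.1, 351.9, 202.5 and 409.4 with 5-Ph-IAA alone. They were 811.6, 768.1, 845.9, 1366 and 637.5 with TIR1(F79G) alone and 398.0, 566.3, 468.1, 861.5 and 509.3 with both components. Means were 477 ± 196, 446 ± 190, 886 ± 280 and 561 ± 179 (SD, n = 5 each). In 4 of 5 TIR1(F79G) libraries cut-1 exceeded every library with neither component, and 4 of 5 libraries with both components lay below every TIR1(F79G) library.

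The collagen col-41 was expressed at a far lower level and divided the conditions differently. With neither component it had 44.7, 44.6, 42.5, 36.4 and 84.3 normalized counts, and with 5-Ph-IAA alone it had 11.4, 14.2, 9.78, 13.4 and 28.8, between 12 and 30 reads per library. With TIR1(F79G) alone it had 14.04, 33.3, 20.8, 30.5 and 29.8, and with both components it had 53.1, 56.9, 54.5, 79.9 and 64.0. The 5 libraries with both components lay above all 10 libraries that had only 1 of the components, and the 5 libraries with neither component also lay above those 10. The share of all tested genes whose ranges separated in this way was not counted. Such separations are given as descriptions, here and for the other genes.

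The means of col-41 in that order were 50.5 ± 19.2, 15.5 ± 7.65, 25.7 ± 8.03 and 61.7 ± 11.04 normalized counts (SD, n = 5 each). The order from high to low was both components, neither component, TIR1(F79G) alone and 5-Ph-IAA alone. Both components and neither component overlapped in range, as did TIR1(F79G) alone and 5-Ph-IAA alone, whereas neither component and TIR1(F79G) alone did not.

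**Figure D1:**
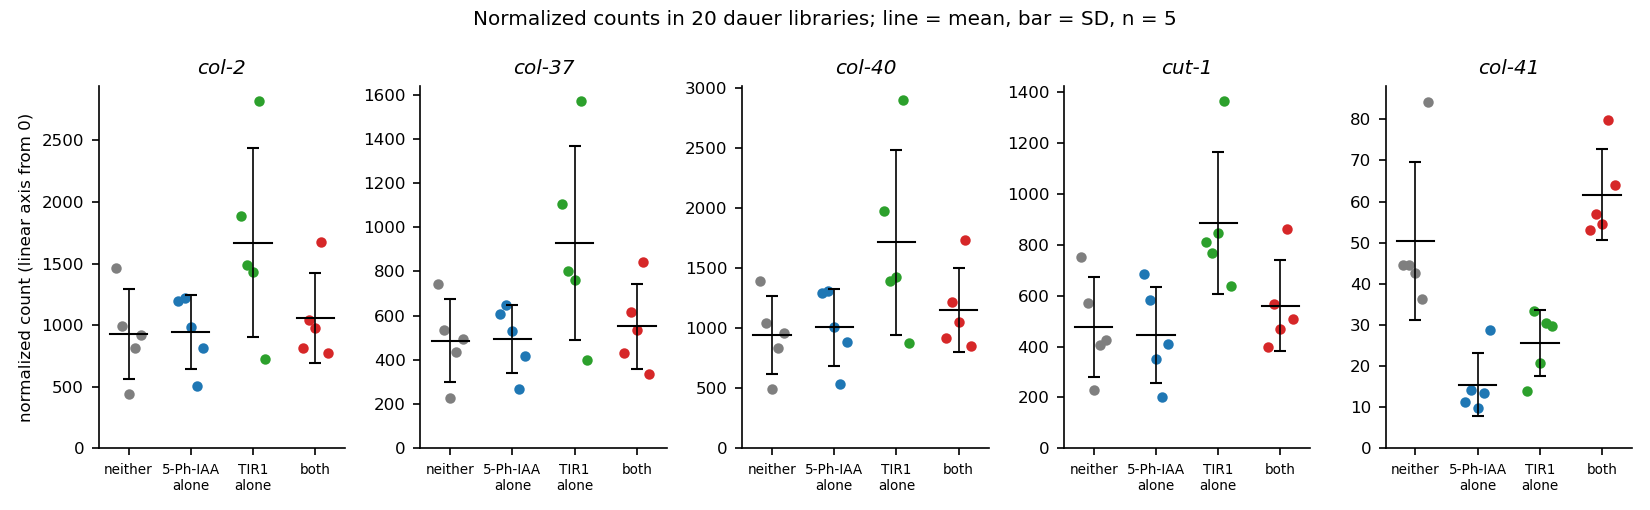
Normalized counts on linear axes from 0 for col-2, col-37, col-40, cut-1 and col-41 in the 4 conditions, with 1 point per library in the order of replicates 1 to 5, a line at the mean and a bar of 1 SD (n = 5). The first 4 genes overlap between all conditions, with the highest library in TIR1(F79G) alone, and col-41 is high with neither component (50.5 ± 19.2) and with both (61.7 ± 11.04).

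The first question of the design was what removal of DAF-16 from the dauer intestine changed, and its answer rests on both components against each control with 1 component. Among the dauer-linked genes, col-41 was higher than with TIR1(F79G) alone, and the other 4 genes passed in neither comparison. The range of col-41 with both components (mean 61.7 normalized counts) overlapped that with neither component (mean 50.5). The libraries with TIR1(F79G) alone (mean 25.7) lay below every library with neither component. Against TIR1(F79G) alone, which shares the strain, col-41 rose by a log2 fold change of 1.28 (SE 0.27, 95% interval 0.73 to 1.82, limma adjusted p = 0.000898), and it was higher in 5 of 5 libraries than in any TIR1(F79G) library. With the summed oocyte and eggshell markers as a covariate the value was 0.68 and did not pass (adjusted p = 0.482, limma). In this comparison 1 of the 5 genes was called, beside 8.88% of all genes tested. Fold changes are on the log2(normalized count + 1) scale, which understates those of low genes.

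Against TIR1(F79G) alone the point estimates of the other 4 genes lay below 0 and none passed the test. For cut-1 the log2 fold change was -0.66 (SE 0.28, adjusted p = 0.111, limma), for col-37 -0.68 (SE 0.31, adjusted p = 0.134), for col-2 -0.59 (SE 0.30, adjusted p = 0.191) and for col-40 -0.51 (SE 0.28, adjusted p = 0.223). The 95% intervals, not adjusted for the number of genes, excluded 0 for col-37 (-1.31 to -0.04, unadjusted p = 0.0373, limma) and cut-1 (-1.25 to -0.08, unadjusted p = 0.0284) and included it for col-2 (-1.21 to 0.03) and col-40 (-1.07 to 0.06). One library decided part of this: without replicate 5 of TIR1(F79G) alone, col-2 (-0.86, adjusted p = 0.0325, limma) and col-37 (-0.95, adjusted p = 0.0218) passed the test as lower with both components. Fitted on these 2 conditions alone, cut-1 passed as well (-0.66, adjusted p = 0.0258, limma).

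Against 5-Ph-IAA alone, the control without TIR1(F79G), the fitted log2 fold change of col-41 was 2.01 (SE 0.27). The libraries with 5-Ph-IAA alone had a part in the choice of col-41, so this value is a description without a test, as is the call of 1 of the 5 genes beside 9.17% of all genes. The other 4 genes stayed close to the control. Their log2 fold changes ran from 0.16 for col-37 (SE 0.31, adjusted p = 0.789, limma) to 0.40 for cut-1 (SE 0.28, adjusted p = 0.379), and the interval of col-2, from -0.45 to 0.79, covered changes in either direction.

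The controls with 1 component were compared with the condition that had neither. With 5-Ph-IAA alone col-41 was lower by a fitted log2 fold change of -1.68 (SE 0.27), given as a description for the reason above. In this comparison 1 of the 5 genes was called, beside 0.0293% of all genes, from which nothing is read for the same reason. Its value in every 5-Ph-IAA library lay below every library with neither component, and the fitted value was -1.48 without replicate 5 of the condition with neither component. The other 4 genes had log2 fold changes between -0.11 for cut-1 and 0.10 for col-40 (SE 0.28 each, limma adjusted p = 1 each).

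With TIR1(F79G) alone 0 of the 5 genes were called against the condition with neither component, beside 0.246% of all genes. The 4 abundant genes nonetheless had an unadjusted p under 0.05 in limma, as had 1795 of the 17090 genes. The 4 abundant genes had positive log2 fold changes, 0.95 for cut-1 (SE 0.28, adjusted p = 0.146, limma), 0.89 for col-37 (SE 0.31, adjusted p = 0.243), 0.82 for col-40 (SE 0.28, adjusted p = 0.223) and 0.81 for col-2 (SE 0.30, adjusted p = 0.291). For col-41 the fitted value was -0.95 (SE 0.27), with no overlap between the groups. It is a description without a test, since the libraries with neither component may also have had a part in the choice of col-41. DESeq2 on the recovered reads gave -0.99 for col-41, likewise a description, and called none of the other 4. With edgeR and limma voom 0 of the 5 were called.

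The interaction, which sets the response to 5-Ph-IAA in the TIR1(F79G) strain against that in the other strain, was 2.95 (SE 0.38) on the log2 scale for col-41, again as a description, since it uses the libraries with 5-Ph-IAA alone. For the other 4 genes it lay between -0.73 for col-37 (SE 0.44, limma adjusted p = 0.35) and -0.55 for cut-1 (SE 0.40, adjusted p = 0.47), and none was called. Of all genes, 6.73% were called in the interaction.

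The comparison of both components with neither was added after the values had been seen. It gave a log2 fold change of 0.33 for col-41 (SE 0.27), a description for the same reason. Of the 5 genes 0 were called, beside 8.14% of all genes. An unadjusted p under 0.05 in limma was found for 0 of the 5 and for 5089 of the 17090 genes. TIR1(F79G) alone against 5-Ph-IAA alone, likewise added and differing in both strain and ligand, gave 0 calls among the 5 genes beside 0.503% of all genes. Each of the 4 abundant genes had an unadjusted p under 0.05 in limma, as had 1802 of the 17090 genes. These 4 rose and fell together, as given below, so they are not separate results. In that comparison cut-1 had a log2 fold change of 1.06 (SE 0.28, limma adjusted p = 0.0673), with 4 of 5 TIR1(F79G) libraries above every 5-Ph-IAA library. For col-41 the fitted value was 0.73 (SE 0.27), again a description.

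**Figure D2:**
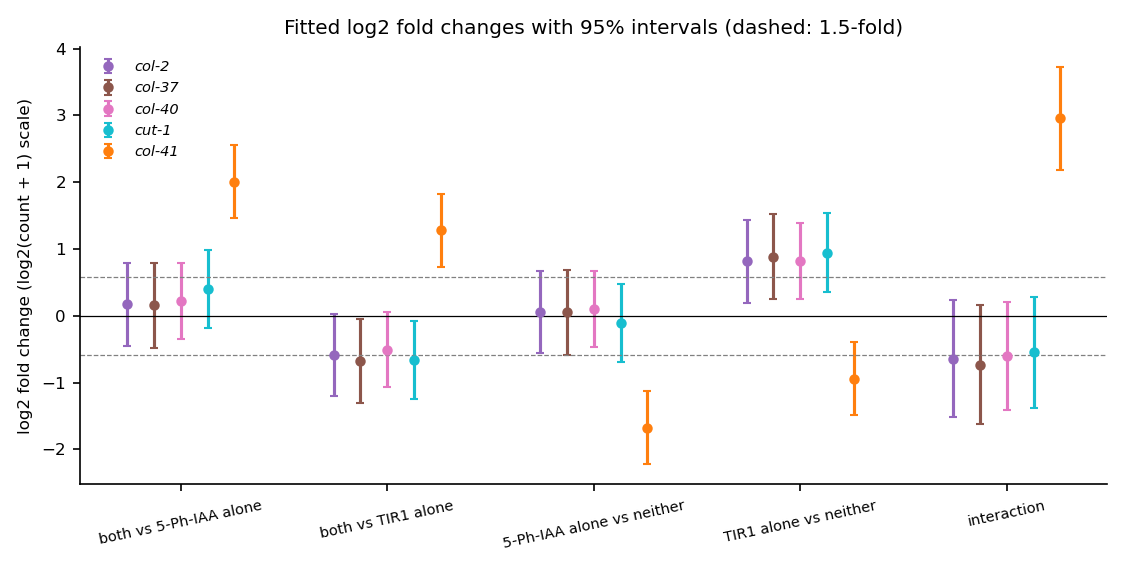
Fitted log2 fold changes (vertical axis, log2(normalized count + 1) scale) of the 5 genes in 4 comparisons and the interaction, with 95% intervals from limma and dashed lines at a 1.5-fold change. The values of col-41 run from -1.68 to 2.95, and the other 4 genes move as a block, near 0.8 to 0.95 for TIR1(F79G) alone against neither component and near -0.5 to -0.7 for both components against TIR1(F79G) alone.

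The 4 abundant genes kept their proportions from library to library. The ratio of col-2 to col-40 stayed between 0.824 and 1.07 in all 20 libraries, a span of 1.29-fold, whereas the level of col-2 itself spanned 6.36-fold. The ratio of col-37 to col-40 spanned 1.45-fold, and that of col-2 to cut-1 spanned 2.48-fold, from 1.13 to 2.80. By contrast the ratio of col-2 to col-41 spanned 12.9-fold.

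Pearson correlations were computed for the 10 pairs of genes over the 20 libraries on log2 values, after the mean of each condition was subtracted so that no difference between conditions could enter. For col-2 and col-40 r was 0.991 and Spearman's rho 0.977, and r was again 0.991 without the 2 libraries farthest from the median. For col-2 and col-37 r was 0.989 (rho 0.989, and r 0.981 without 2 libraries) and for col-37 and col-40 r was 0.987 (rho 0.991, and 0.982). The cuticlin cut-1 followed these collagens with r of 0.895 with col-2, 0.858 with col-37 and 0.913 with col-40 (rho 0.812, 0.817 and 0.857). Without the 2 farthest libraries these values of r were 0.906, 0.846 and 0.929.

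Each of these 6 pairs had a permutation p of 1e-05 for r, the smallest that 100000 permutations of the libraries can give, and 1.67e-05 after Benjamini-Hochberg adjustment over the 10 pairs. The permutation p of rho was at most 5e-05 for the same pairs (adjusted p at most 8.33e-05). The gene col-41 went with none of them: its centred r was -0.005 with col-2, -0.039 with col-37, -0.003 with col-40 and 0.118 with cut-1, with permutation p between 0.622 and 0.991 (adjusted p from 0.889 to 0.991) and rho from -0.035 to 0.203 (adjusted p from 0.559 to 0.998). Without the 2 farthest libraries its r stayed between -0.015 and 0.187. Without centring, the 6 pairs had r from 0.896 to 0.992 and col-41 had r from -0.102 to 0.054 with the other genes. The labels name no batch within which the relation could be repeated.

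**Figure D3:**
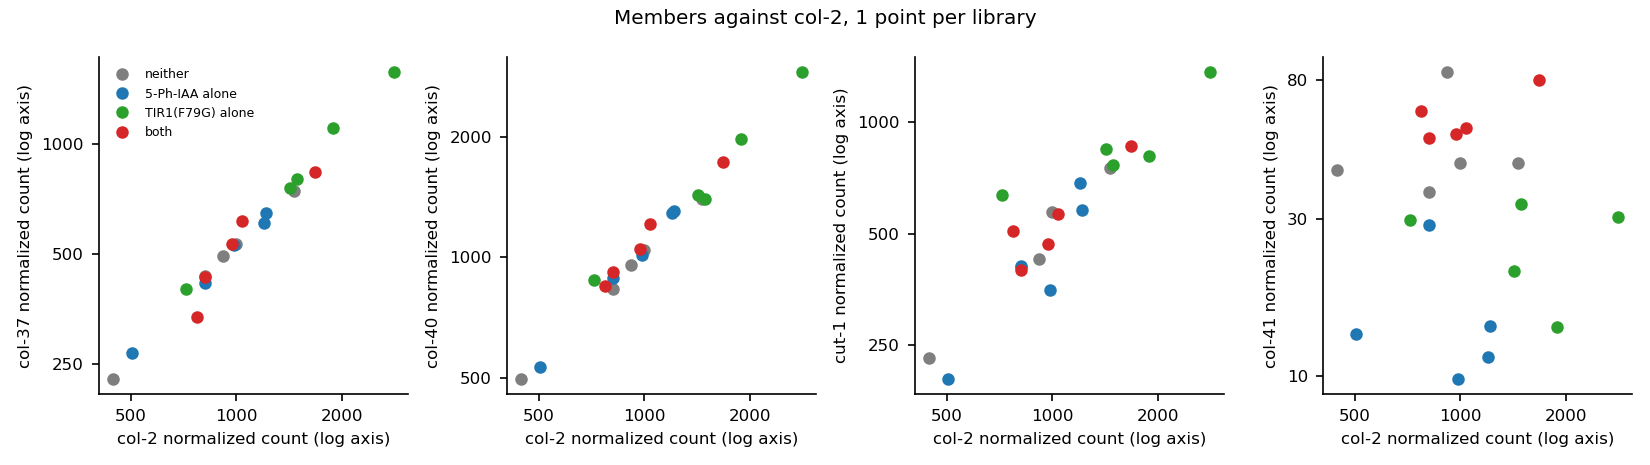
Normalized counts of col-37, col-40, cut-1 and col-41 (vertical, log axes) against those of col-2 (horizontal, log axis), with 1 point per library coloured by condition. Points of all 4 conditions fall on 1 line for col-37 and col-40 and scatter more for cut-1, and col-41 shows no relation to col-2 (centred r = -0.005).

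The same libraries ranked highest and lowest for the co-varying genes. Replicate 4 of TIR1(F79G) alone ranked 1 of 20 for col-2, col-37, col-40 and cut-1 alike, whereas col-41 ranked 12 there. Replicate 3 with neither component ranked 20, 20, 20 and 19 for the same genes and 9 for col-41. The library with the highest col-41, replicate 5 with neither component, ranked 13, 13, 13 and 14 for col-2, col-37, col-40 and cut-1. High and low libraries of the 4 genes occurred in controls as well as in the condition with both components.

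This variation between replicates was large for genes of their level. The SD of col-2 within conditions was 0.59 on the log2 scale, against a median of 0.08 over the 1300 tested genes within 1.5-fold of its mean level, and 99.7% of those genes varied less. The corresponding SDs were 0.60 for col-37, 0.54 for col-40 and 0.55 for cut-1, each with over 99% of genes of like level below it. For col-41 the SD was 0.46 against a median of 0.30, with 89.9% of 1773 genes below it. The share of variance that lay between conditions was 27.5% for col-2, 30.5% for col-37, 30.4% for col-40 and 41.03% for cut-1, and 78.95% for col-41. The share of col-41 is a description, since libraries that had or may have had a part in its choice enter it.

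The level of the co-varying genes was set beside depth, ribosomal RNA and the marker sums. Centred by condition, r with the reads on genes lay between 0.236 for cut-1 and 0.438 for col-37, and r with the share of ribosomal RNA between -0.221 and -0.007 (n = 20, values given as descriptions). With the summed molting cycle genes it was 0.567 to 0.628, with the summed intestine markers 0.629 to 0.699, and with the hypodermis and seam markers -0.328 to -0.126. With the adult hypodermis markers it was -0.181 to 0.011. The part of any of these in the pattern was not tested.

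For col-41 the relations differed in part. Its uncentred r was 0.79 with the summed molting cycle genes, 0.727 with the adult hypodermis markers, 0.646 with oocyte and eggshell markers and 0.54 with yolk genes (n = 20). Centred by condition these were 0.579, 0.437, 0.373 and 0.124. The centred r with the molting cycle genes, 0.579, lay within the 0.567 to 0.628 of the co-varying genes. Their uncentred r with that sum was at most 0.395. The centred r of col-41 was 0.127 with the intestine markers, below that of the co-varying genes. With the hypodermis and seam markers it was 0.477, above theirs. The adult marker sum reached 389 in replicate 5 with neither component, where col-41 was also highest at 84.3. Replicate 5 of TIR1(F79G) alone had a sum of 283 and a col-41 of 29.8. In the 4 other libraries with neither component the sum was 26.9 to 129, and col-41 there, 36.4 to 44.7, lay above all 10 libraries with 1 component. The part of adult tissue in the pattern of col-41 was not tested.

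Oocyte and eggshell markers summed to 2841 to 6467 normalized counts with both components and to 1712 to 3017 in the controls. Against 5-Ph-IAA alone 10 of the 10 were called higher, beside 9.17% of all genes. With that sum as a covariate the log2 fold change of col-41 was 1.34 against 5-Ph-IAA alone, beside the 0.68 given above against TIR1(F79G) alone. The sum moves with the conditions, so its part in the difference was not tested. Without the 3 libraries that stood apart (replicate 5 with neither component, of TIR1(F79G) alone and of both components together, a choice made after the data were seen), col-41 was higher by 1.33 against TIR1(F79G) alone (adjusted p = 0.00131, limma).

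**Figure D4:**
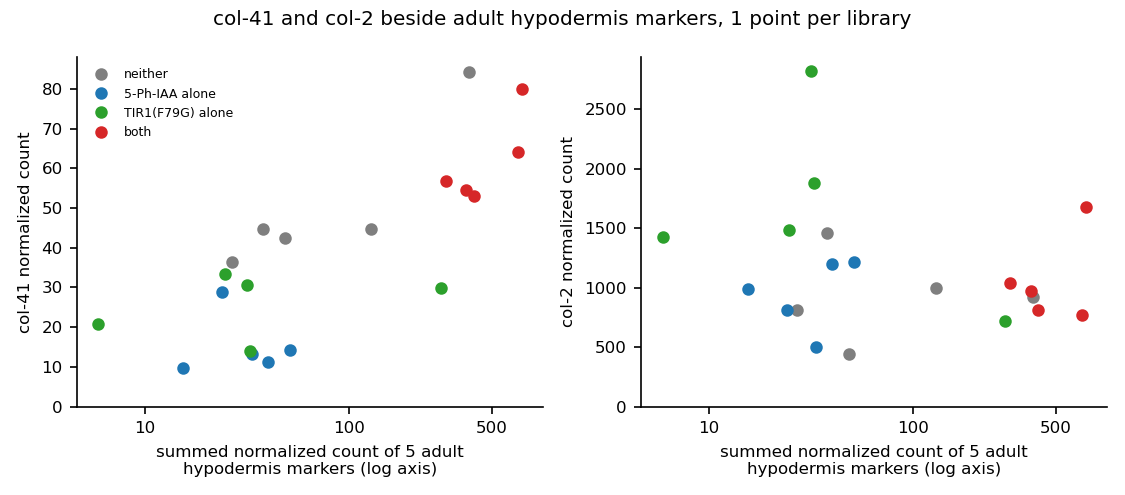
Normalized counts of col-41 (left) and col-2 (right), on linear vertical axes from 0, against the summed normalized counts of the 5 adult hypodermis markers on a log axis, with 1 point per library coloured by condition. The libraries with both components lie at 299 to 702 on the horizontal axis together with 2 control libraries (389 and 283), of which 1 has the highest col-41 (84.3) and the other a col-41 of 29.8. For col-2 the 5 libraries with both components lie within the range of the controls.

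The genes whose pattern was most like each member were sought among 13009 tested genes with a mean of at least 10 normalized counts, by Pearson r over the 20 libraries, given without a test. Besides each other, col-2 lay closest to the collagen col-50 (r = 0.971), and both col-37 (r = 0.976) and col-40 (r = 0.967) to grl-25, a ground-like gene distantly related to hedgehog. The nearest genes to cut-1 were the collagen col-102 (r = 0.986), daf-42 (r = 0.98), a gene required for dauer development, and the collagen col-36 (r = 0.975). Between 16 and 19 genes exceeded r = 0.9 with col-2, col-37, col-40 or cut-1. Of the 20 nearest genes of each, 11 or 12 were col genes, against 5 of 20 for col-41. All genes compared held 114 col genes, the members included.

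Like col-2, col-37, col-40 and cut-1, daf-42 and grl-25 had their highest mean with TIR1(F79G) alone and the next with both components. The mean of daf-42 was 174 ± 70.5 normalized counts with neither component, 160.0 ± 52.7 with 5-Ph-IAA alone, 301 ± 114 with TIR1(F79G) alone and 198 ± 75.0 with both components (SD, n = 5 each). That of grl-25 was 1218 ± 364, 1158 ± 304, 2056 ± 673 and 1328 ± 292 in the same order. None of col-36, col-50, col-102, daf-42 and grl-25 was called in both components against TIR1(F79G) alone, where grl-25 had a log2 fold change of -0.60 (SE 0.22). These genes were picked by their likeness to the members over the same libraries, so this is a description without a test.

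The gene col-41 had other neighbours. They were the collagens col-90 (r = 0.90, centred 0.652) and col-17 (r = 0.883, centred 0.748) and pept-1, which encodes an intestinal peptide transporter (r = 0.848, centred 0.594), and no gene exceeded r = 0.9. With neither component, 5-Ph-IAA alone, TIR1(F79G) alone and both components, the mean of col-90 was 47.8 ± 29.7, 15.6 ± 3.79, 21.6 ± 8.10 and 73.01 ± 25.0 normalized counts (SD, n = 5 each). Its medians in the first and last of these conditions, 35.0 and 67.5, were further apart than those of col-41, 44.6 and 56.9. With both components against TIR1(F79G) alone the log2 fold changes were 1.72 for col-90 (SE 0.31), 1.65 for col-17 (SE 0.36) and 0.78 for pept-1 (SE 0.11). These genes were picked by their likeness to col-41 over the same libraries, with the differences between conditions included. Their values are therefore descriptions without a test.

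The other col genes divided between these patterns. Of 110 col genes that were not on the list and had a mean of at least 10 normalized counts, 31 had r over 0.5 with col-2, 53 had r over 0.5 with col-41, 0 had both and 26 had neither. Of the 31 like col-2, 0 were called higher with both components against TIR1(F79G) alone and 3 lower (col-45, col-108 and col-183). Of the 53 like col-41, 41 were called higher and 0 lower in that comparison, where 8.88% of all genes were called. The correlations and the calls use the same libraries, so these counts describe how the family was arranged and are not independent of each other.

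**Figure D5:**
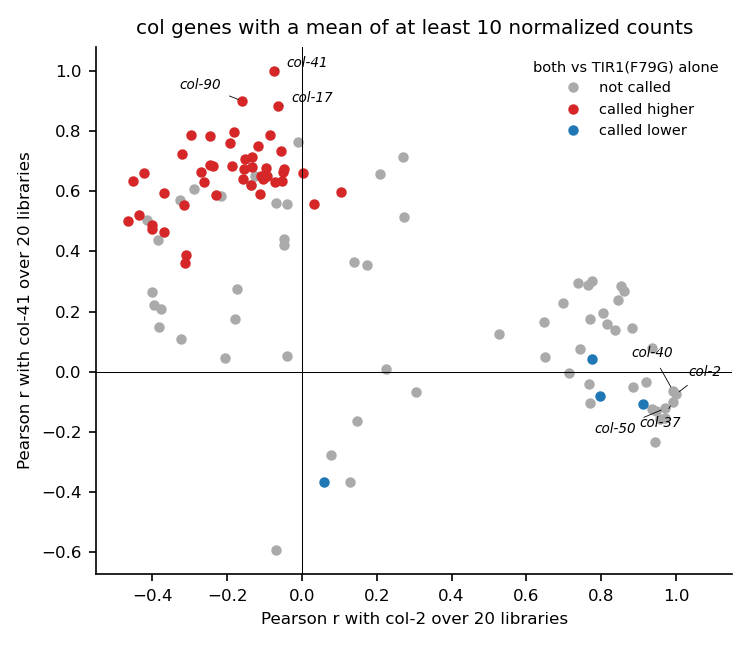
Each point is 1 of 114 col genes with a mean of at least 10 normalized counts, placed by its Pearson r with col-2 (horizontal) and with col-41 (vertical) over the 20 libraries and coloured by its call in both components against TIR1(F79G) alone. A group at the right holds col-37, col-40, col-50 and others like col-2, and a group at the upper left holds the genes called higher, among them col-90 and col-17. Of the 110 genes not on the list, 0 had r over 0.5 with both.

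Across the col family, 50 of 133 other tested genes were higher and 4 lower with both components than with TIR1(F79G) alone, beside 8.88% of all genes. The median log2 fold change was 0.52 over all 137 tested, against -0.02 over all genes. Against 5-Ph-IAA alone 52 of the 133 were higher and 0 lower, beside 9.17% of all genes. Those with the largest values in any comparison, all in the interaction, were col-119 (6.58, SE 1.47), col-19 (6.25, SE 1.48), col-20 (6.22, SE 1.37) and col-8 (6.08, SE 1.29 on the log2 scale), and col-119 had means of 64.3, 16.6, 37.7 and 374 normalized counts in the conditions with neither component, 5-Ph-IAA alone, TIR1(F79G) alone and both components. The gene col-19 is a known marker of the adult cuticle. Between 5-Ph-IAA alone and neither component 0 of the 133 were called by limma, beside 0.0293% of all genes. Of the 133, 28 had an unadjusted p under 0.05 in limma, as had 835 of the 17090 genes.

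Of 28 tested cuticlins other than cut-1, 2 were higher and 1 lower with both components than with TIR1(F79G) alone, where 8.88% of all genes were called, and the median log2 fold change over all 29 was -0.07. The cuticlin cut-2 was higher, with means of 18.2, 9.92, 7.09 and 35.8 normalized counts in the same order of conditions, and cutl-6 was lower, at 5.61, 3.24, 6.32 and 1.72. The cuticlin cutl-16 was higher with both components than with neither, at 27.7 against 14.5. The further cuticlins of the alae cut-5 and cut-6, named after their values had been seen, had lower means than cut-1 (446 to 886 normalized counts). The means were 5.08 to 12.8 for cut-5 and 47.2 to 58.2 for cut-6, and neither gene was called with both components against TIR1(F79G) alone.

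Further lists held the collagens named for body shape mutants and the genes of the molting cycle. Beside 8.88% of all genes called in both components against TIR1(F79G) alone, 13 of 19 body shape collagens were higher and 0 lower. Their median log2 fold change was 1.59. Those with the largest values in any comparison, again in the interaction, were bli-1, a collagen of the adult cuticle struts (4.44), dpy-14 (4.10), dpy-13 (3.25) and dpy-5 (2.97), and bli-1 had means of 10.3, 4.69, 2.32 and 59.1 normalized counts. Of 15 molting cycle genes 6 were higher and 0 lower, among them mlt-8, mlt-11, ptr-4 and noah-2, beside the same 8.88% of all genes. Their median was 0.38. Of 12 enzymes that modify, process or crosslink collagen 0 were called in any of the comparisons by limma, beside 0.0293% to 9.17% of all genes. In both components against TIR1(F79G) alone 7 of them had an unadjusted p under 0.05 in limma, as had 5200 of the 17090 genes, and the median was 0.09. The adult hypodermis markers belong in part to the col and body shape lists, and 3 of 4 tested were higher, beside the same 8.88%.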

How the data were processed

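Total RNA from whole dauers was depleted of ribosomal RNA and sequenced as 75-bp single-end reads in 1 pool of 20 libraries. Per the methods, the authors checked reads with FastQC, trimmed them with Trimmomatic, aligned them with STAR to WormBase release WS284, assigned them to genes with featureCounts and scaled the resulting counts with DESeq2. Tool versions and the strand setting are not given in the sources used here. The deposited table holds DESeq2-normalized counts, a signal scaled by size factors. Whole reads could be recovered by dividing by the value of 1 read in each library (100% of values whole within 0.01), and 0 sample columns were left unmapped. Replicates were separate plates, and their values correlated with r of 0.978 to 0.991. Samples were grouped by strain and treatment in the labels.

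Genes with a mean of at least 2 were fitted with limma 3.58.1 (R 4.3.3, lmFit and eBayes with trend) on log2(normalized count + 1), with 1 mean per condition, the 20 libraries sharing 1 spread per gene, and no replicate block. A gene was called at a Benjamini-Hochberg adjusted p under 0.05 over all 17090 genes and at least a 1.5-fold change. Of 200 genes changed 3-fold in data simulated for both components against 5-Ph-IAA alone, 166 (83%) were recovered. The genes were drawn at random, each with its own spread. The share does not give the power for col-2, col-37, col-40 and cut-1. Their SDs within conditions were 0.54 to 0.60 on the log2 scale, against medians of 0.08 to 0.09 for genes of like level. Permutation tests are two-sided. Counting error is part of the spread between libraries, and intervals come from that spread. Alternatives were edgeR 4.0.16 and DESeq2 1.42.0 on the recovered reads, limma voom, other pseudocounts, filters and scalings, a replicate block, sample weights, an oocyte covariate and leaving out each library.

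The members and gene lists were chosen with earlier results of these data known. Named genes were the listed members, the 3 genes most like each, and up to 4 called genes per list with the largest changes, exceptions being marked in the text. Identifiers were matched to Ensembl release 115 (WBcel235). No sequences were compared, so nearest proteins are not reported.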

Additional observations from a re-analysis of the deposited data

Results flagged for a closer look

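In 3 of the 20 sets of 5 replicates (5 genes in 4 conditions) the highest library stood farther from the rest than Dixon's test allows at its 95% level, where chance gives about 1 in 20. These were col-41 in replicate 5 with neither component (84.3 normalized counts, against 36.4 to 44.7), col-41 in replicate 5 of 5-Ph-IAA alone (28.8, against 9.78 to 14.2) and cut-1 in replicate 4 of TIR1(F79G) alone (1366, against 637.5 to 845.9). Replicate 5 with neither component also held the largest yolk sum of the controls (14130 normalized counts of vit-1 to vit-6), and replicate 5 of 5-Ph-IAA alone one of the smallest (3.84). The part of these sums in the values was not tested.

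The fitted response of col-41 to 5-Ph-IAA was 2.95 higher on the log2 scale in the TIR1(F79G) strain than in the other strain. This is a description only, since the libraries with 5-Ph-IAA alone had a part in the choice of col-41.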

How the results depend on the processing

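Each result was recomputed under 36 planned settings, 20 of which left out 1 library, and 1 added after the data were seen. Of 920 values of the members' log2 fold changes 897 kept their direction and side of the threshold. With the oocyte covariate 0 members were called in both comparisons with both components, where 1 was called otherwise. For TIR1(F79G) alone against neither component, 0 calls became 1 with DESeq2. Fitting only the compared conditions gave 2 calls for both components against TIR1(F79G) alone, and leaving out 1 library gave 1 to 3 calls there, the 3 without replicate 5 of TIR1(F79G) alone.

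The labels do not say that a replicate number marks a shared day or batch, and of 30 same-numbered pairs 3 had a correlation of deviations over 0.1 (from -0.098 to 0.25), so the samples were not treated as paired. In 12 of the 30 the best match was the own number, a hint of pairing from the data and not from the design. With the replicate block, TIR1(F79G) alone against neither component gave 2 calls among the members and 107 rather than 42 over all genes. The 2 were cut-1 (0.95, adjusted p = 0.046, limma) and col-41 (-0.95, given as a description). Over all genes 5-Ph-IAA alone against neither component gave 18 calls with the block rather than 5, and 3 to 12 under other settings. A minimum of 2-fold, no minimum and the oocyte covariate gave 992, 3369 and 624 calls against 5-Ph-IAA alone (1568 otherwise) and 944, 3237 and 678 against TIR1(F79G) alone (1517 otherwise). The interaction gave 1840 with no minimum and 492 with the covariate (1151 otherwise), and TIR1(F79G) alone against neither gave 18 to 103 under the other settings.

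The 15 changes of direction all came from leaving out 1 library and concerned uncalled values near 0. Those ranges ran for 5-Ph-IAA alone against neither component from -0.18 to 0.27 (col-2), -0.20 to 0.25 (col-37), -0.12 to 0.31 (col-40) and -0.35 to 0.14 (cut-1). For both components against 5-Ph-IAA alone they ran from -0.04 to 0.28 (col-2) and -0.04 to 0.32 (col-37). The cause of these changes was not tested. The reads of col-41 numbered 12 to 35 per library with 1 component alone. The lowest were 27 with neither component and 22 with both components, the latter in replicate 5. Counting error limits the precision of col-41 in every condition.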

Other observations

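Among the genes compared, those running most nearly opposite to the co-varying members included genes of large-subunit ribosomal proteins, named after their values had been seen. For cut-1 the lowest r over the 20 libraries was that of rpl-6 (-0.805), with rpl-7A at -0.797. For col-2 these genes had r of -0.734 and -0.736, and Y71F9B.1 had a lower r of -0.787. For col-41 the same ribosomal protein genes had r of -0.296 and -0.041, whereas acr-20 had -0.847. Ribosomal protein genes were not examined as a set. These are descriptions of 20 libraries in 4 conditions, without a test.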
